A study of Mus musculus with 335 samples.

Results

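The 8 genes described here are Igf1, which encodes insulin-like growth factor 1, its receptor gene Igf1r, and the genes of 6 IGF-binding proteins, Igfbp2 to Igfbp7. They were chosen by symbol from the 20188 genes of the deposited expression table, and all 8 were found. IGF1 is a secreted growth factor that is made in quantity by the liver and locally by connective tissue cells, and it acts through a receptor tyrosine kinase that signals by way of insulin receptor substrates, PI 3-kinase and AKT. The binding proteins hold IGFs in blood and tissue, prolong their life, and can either withhold them from the receptor or deliver them to it. In the mammary gland IGF1 supports growth of the ducts, and IGFBP5 is known for its increase when the gland regresses after lactation.

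The study compared metastases with primary tumours in mouse mammary cancer models, by RNA sequencing of libraries that fall into 61 groups. Tumours arose in transgenic mice or from transplanted lines, and metastases were taken from lung and, in some models, liver, spleen or brain. No animal had received a treatment.

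In the transgenic models the MMTV promoter, which is active mainly in mammary epithelium, drove polyoma middle T antigen (PyMT), Myc or Neu, and the C3Tag mice carried the SV40 T antigen. PyMT was studied on FVB and in crosses to BL6, BL10, CAST and MOLF mice, and the Myc and Neu tumours were on FVB. Each allograft model was a single transplanted line. The lines 4T1, 4T07, 67NR, D2A1, EMT6, F311 and TSAE1 came from BALB mice, E0771 from BL6 and R3T from 129S1J, all with a driver given as unknown. The lines 6DT1 (cMyc), Mvt1 (cMYC with VEGF), Met1 (PyMT) and HRM1 (Pik3ca) were FVB lines, and M6 carried SV40 T antigen, with FVB, BALB or REAR given as its strain. Lines were placed in the mammary gland (orthotopic, in some Met1 animals with later resection), injected into the tail vein or injected into the heart. Cultured cells were sequenced for 7 of the lines. Lung and liver of healthy FVB mice, as well as tumour-adjacent lung, liver or spleen, served as normal tissue. The lung called here adjacent lung is labelled tumour-adjacent lung of PyMT FVB mice. Its library names hold LungPrecond, those of healthy lung LungUncond, and the labels do not say that it lay next to metastases. The adjacent lung came from animals other than those that gave the metastases. The values are RPKM, reads scaled to transcript length and to the library's mapped reads, so that levels of different genes can be set side by side per length, and each value below is the mean over the libraries of 1 animal or 1 culture.

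The promoters of the 3 binding proteins on which the differences between models turn are shown as the 250 bases before the annotated start in the RefSeq annotation of build GRCm38.p6, because Igfbp5 and Igfbp4 took opposite places across the groups and Igfbp2 is the neighbouring gene of Igfbp5 on chromosome 1. Capitals mark GGGCGG or its reverse complement CCGCCC, and TATAAA or its reverse complement TTTATA, 2 motifs that share no overlap. The Igfbp5 window is chr1:72874866-72875115 on the minus strand, the Igfbp4 window is chr11:99040994-99041243 on the plus strand, and the Igfbp2 window, the first of 2 annotated starts, is chr1:72824230-72824479 on the plus strand.
Igfbp5: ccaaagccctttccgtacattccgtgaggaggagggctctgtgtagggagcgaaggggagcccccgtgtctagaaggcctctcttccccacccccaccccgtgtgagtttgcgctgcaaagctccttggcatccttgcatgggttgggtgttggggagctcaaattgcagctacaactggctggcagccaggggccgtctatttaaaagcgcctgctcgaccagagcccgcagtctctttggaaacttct
Igfbp4: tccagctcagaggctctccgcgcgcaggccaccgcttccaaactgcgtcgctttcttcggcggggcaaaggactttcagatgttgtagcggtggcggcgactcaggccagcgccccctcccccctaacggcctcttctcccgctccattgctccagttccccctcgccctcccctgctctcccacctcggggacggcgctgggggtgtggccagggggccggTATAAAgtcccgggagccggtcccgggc
Igfbp2: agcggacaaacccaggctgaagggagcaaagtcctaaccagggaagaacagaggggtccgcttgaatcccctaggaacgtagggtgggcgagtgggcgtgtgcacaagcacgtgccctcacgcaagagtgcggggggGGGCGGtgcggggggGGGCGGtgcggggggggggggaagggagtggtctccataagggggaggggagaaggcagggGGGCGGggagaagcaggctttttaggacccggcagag
The Igfbp4 window held 1 TATAAA, the Igfbp2 window held 3 GGGCGG, and neither motif occurred in the Igfbp5 window. Of all 32851 windows of this length, 12.4% held TATAAA and 32.7% held GGGCGG on either strand, so these matches are a description of the letters only. Among the other members, Igfbp6 (chromosome 15) held 1 TATAAA, and Igf1r (chromosome 7) and Igfbp7 (chromosome 5) held 2 and 4 GGGCGG. Neither motif was found before Igf1 (chromosome 10) or Igfbp3 (chromosome 11).

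Library totals recovered from the steps between low RPKM values ran from 8106344 to 54906212 reads with a median of 27175852, and at the median depth 1 read of Igf1 was worth 0.0048 RPKM. Marker genes placed most groups where their labels put them. The summed level of 7 alveolar type 2 cell markers was 1946 to 7717 RPKM in the lung metastases of 10 models, against 0.351 to 132 RPKM in their tumours, and 8 epithelial markers summed to 328 to 1901 RPKM in those tumours. The 7717 RPKM are those of PyMT FVB, whose sum was 1816 RPKM without mouse9716, and the next highest model, 6DT1, had 4592 RPKM. The 67NR tumours and cells held almost none of the epithelial markers (2.67 and 2.11 RPKM). The PyMT FVB lung metastasis of mouse9716 and the only Met1 tail vein metastasis stood apart from their labels. Csn3, a milk protein gene that the other FVB metastases held at 4541 RPKM or more, was at 1.20 RPKM in the metastasis of mouse9716 and at 0.0605 RPKM in the Met1 tail vein metastasis, while the surfactant gene Sftpc was at 55027 and 71546 RPKM, above every adjacent lung. For the differences and sums that include the first, values without it stand beside those that it moves by over 1.5 times, in sign or across the threshold. Where fields of a label disagreed, the source entry was followed for 3 tumours titled as lung metastases, the cell line entry for 6 Mvt1 tail vein metastases titled Met1, and the title for 2 tumours.

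Different binding proteins led in different groups. Of the summed level of Igfbp2 to Igfbp7, Igfbp4 was the leading member in 31 groups, Igfbp5 in 16, Igfbp7 in 10, and Igfbp2 and Igfbp3 in 2 each. Igfbp5 led in every tumour group driven by PyMT and made up 80.1% to 93.4% of the sum in the 5 transgenic PyMT tumour groups. Igfbp4 led in the 4T1, 4T07, 67NR, 6DT1 and Mvt1 tumours and made up 87.4% of the sum in 4T07 tumours. Igfbp2 led in healthy and in adjacent lung, and Igfbp3 in R3T tumours and in the liver metastases of orthotopic M6 tumours. Over the 61 group means the level of Igfbp4 on the log2(RPKM + 1) scale was highest where Igfbp5 was low (Pearson r = -0.61, a description, since many groups share a line, a strain or an organ).

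**Figure D1:**
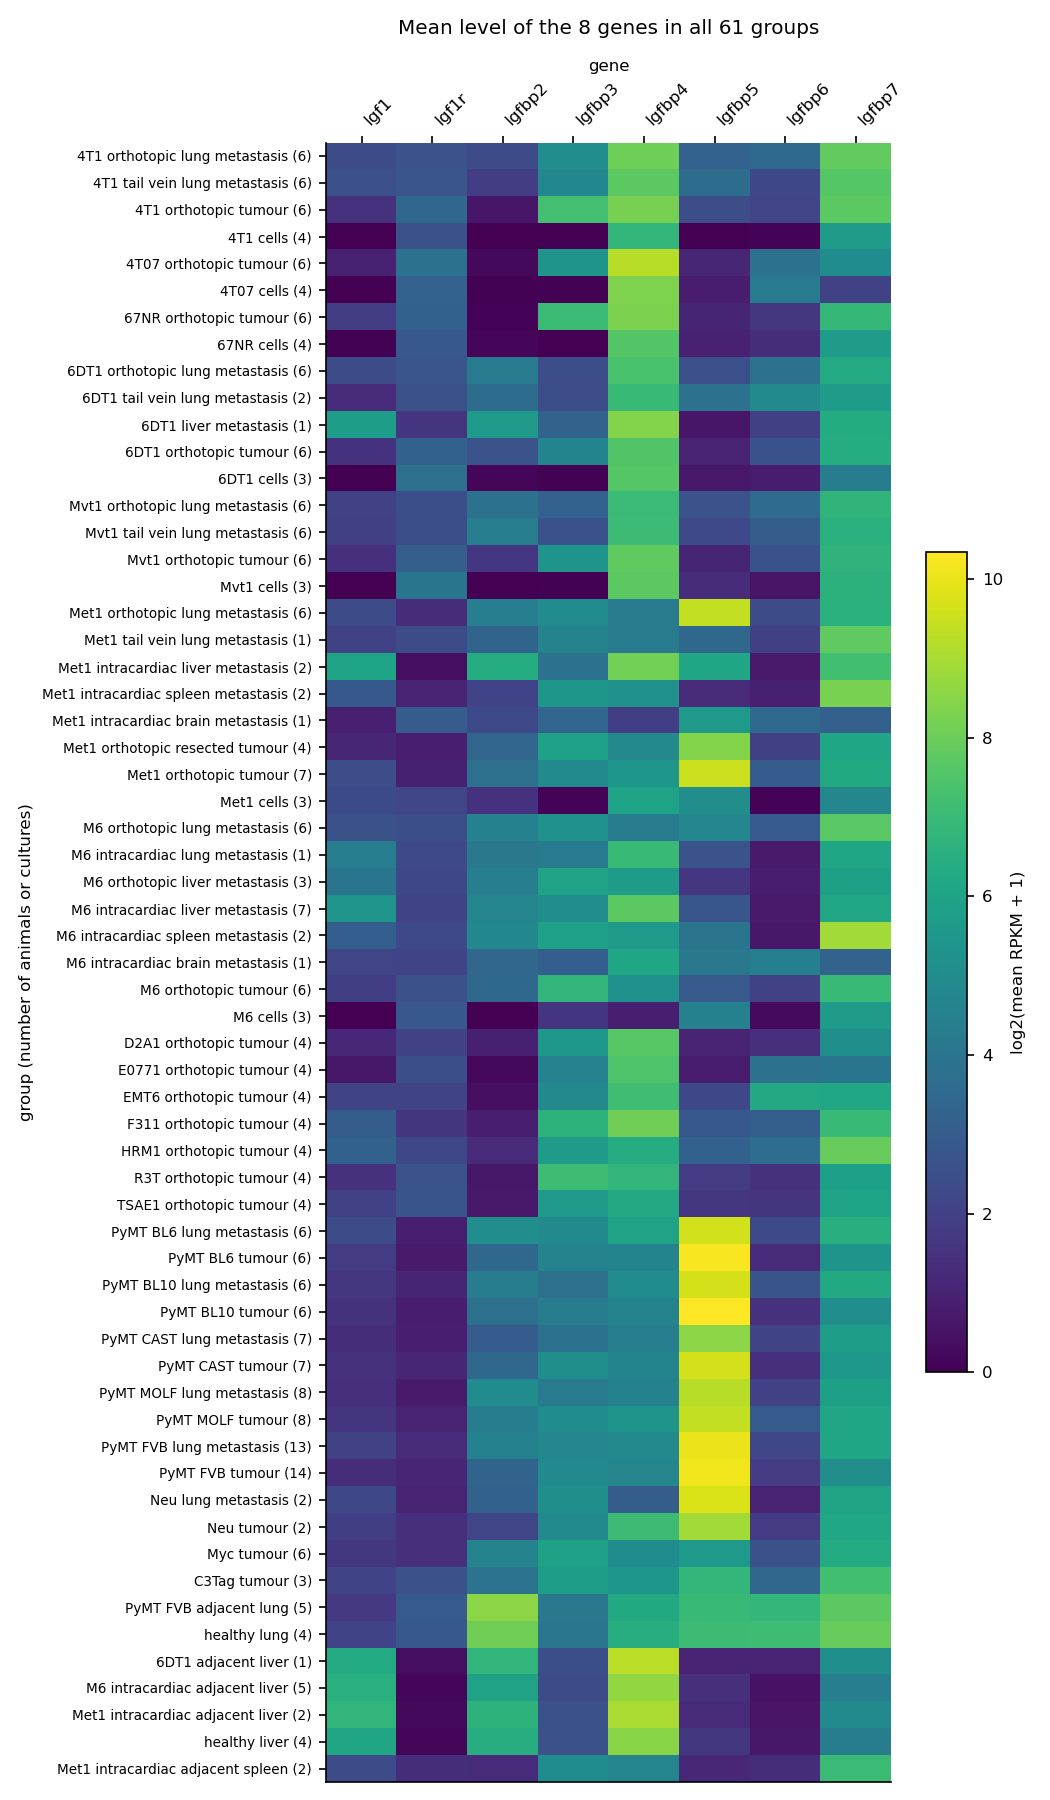
Mean level of the 8 genes (columns) in the 61 groups (rows), as colour on the log2(RPKM + 1) scale, each cell the mean over the animals or cultures of the group. Igfbp5 is high in the PyMT and Neu groups, Igfbp4 in the liver groups and in the 4T1, 4T07, 67NR, 6DT1 and Mvt1 groups, Igfbp2 in lung and liver, and Igf1 in liver.

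Igf1, the ligand, was a liver transcript in this series. It averaged 92.5 ± 14.2 RPKM in liver next to M6 metastases (SD, n = 5) and 67.5 ± 20.7 RPKM in healthy liver (n = 4), and 110.3 RPKM in liver next to Met1 metastases (2 animals). Among the tumours the HRM1 group was highest at 8.32 RPKM and the E0771 group lowest at 0.594 RPKM. In the cultured cells of 6 lines the mean was 0.00464 to 0.0285 RPKM. Met1 cells were the exception, with 2.19, 8.13 and 1.66 RPKM in 3 libraries, which correspond to 562, 1630 and 372 reads. Their summed fibroblast markers, 47.1 to 189.9 RPKM, were also the highest of the cultured lines, and the part of this in the Igf1 level was not tested. Of the 46 neighbouring places in the order of the 47 groups with at least 3 animals, 4 differed by more than the larger SD, and 3 of these were steps between liver groups.

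Igf1r, the receptor, was low in liver and highest in cultured and transplanted lines. It averaged 15.2 ± 0.937 RPKM in Mvt1 cells (SD, n = 3), 13.4 ± 1.64 RPKM in 4T07 tumours (n = 6) and 13.0 RPKM in 6DT1 cells. The 5 transgenic PyMT tumour groups averaged 0.659 to 1.18 RPKM, and healthy liver 0.0891 RPKM. Among the 47 groups with at least 3 animals, healthy liver and liver next to M6 metastases thus had the most Igf1 and the least receptor transcript. This did not extend to the transgenic PyMT tumours, which were low in Igf1r and held 1.58 to 2.45 RPKM of Igf1, below the median group mean of 2.98 RPKM. Over the 61 group means Pearson's r between Igf1 and Igf1r was -0.55 on the log2(RPKM + 1) scale. Neighbouring groups differed by more than the larger SD at 4 of 46 places.

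The binding proteins spanned a wider range. Igfbp5 was at 865, 1438 and 1619.7 RPKM (lowest, median, highest) in PyMT BL10 tumours, which had the highest group mean. It averaged 1193 ± 675 RPKM in BL6 tumours (SD, n = 6), 1094 ± 679 RPKM in FVB tumours (n = 14), 809.7 ± 317 RPKM in CAST tumours (n = 7) and 664 ± 196 RPKM in MOLF tumours (n = 8). Met1 tumours, a transplanted PyMT line, averaged 728 ± 590.1 RPKM (n = 7), the Neu tumours of 2 animals held 113 and 835 RPKM, and C3Tag tumours averaged 114 ± 35.7 RPKM (n = 3). Lung carried a middle level, 128 ± 70.4 RPKM in adjacent lung (n = 5) and 137 ± 61.4 RPKM in healthy lung (n = 4). At the other end, the 6DT1, Mvt1, D2A1, E0771, 4T07 and 67NR tumours averaged 0.71 to 1.16 RPKM. Of the 46 neighbouring places only 2 differed by more than the larger SD, C3Tag over Myc tumours and M6 cells over 4T1 tail vein metastases.

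Igfbp4, whose protein is known mainly for holding IGFs back until it is cleaved, averaged 600.5 ± 90.2 RPKM in 4T07 tumours (SD, n = 6), 403 ± 123 RPKM in liver next to M6 metastases (n = 5) and 362 ± 78.7 RPKM in healthy liver (n = 4). The 67NR and 4T1 tumours followed with 314 ± 39.1 and 297 ± 82.2 RPKM (n = 6 each), whereas the transgenic PyMT tumours averaged 24.2 to 39.6 RPKM and M6 cells 0.805 ± 0.081 RPKM (n = 3). Igfbp2 averaged 371 ± 84.4 RPKM in adjacent lung (n = 5), 272 ± 57.9 RPKM in healthy lung (n = 4) and 85.3 RPKM in healthy liver, and both steps in this order exceeded the larger SD. Igfbp3, the gene of the main carrier of IGFs in blood, was highest in 4T1 tumours at 152 ± 50.4 RPKM (n = 6), followed by R3T, 67NR, M6 and F311 tumours at 140.3, 133, 109.95 and 102 RPKM. Neighbouring groups in the order of Igfbp3 differed by more than the larger SD only below its tissue groups, at M6 cells.

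Igfbp6, whose protein prefers IGF2 over IGF1, averaged 116 ± 34.8 RPKM in adjacent lung (SD, n = 5) and 139.6 ± 9.83 RPKM in healthy lung (n = 4). EMT6 tumours held 75.0 ± 18.0 RPKM (n = 4), more than any other tumour group, and 4T07 cells held 17.8 ± 5.56 RPKM (n = 4). Igfbp7, a protein of vessel walls that binds IGFs only weakly, had a mean of at least 3.08 RPKM in every group. It averaged 481 RPKM in the spleen metastases of 2 M6 animals, 246 ± 25.6 RPKM in healthy lung (n = 4), 245 RPKM in HRM1 tumours and 3.08 ± 1.41 RPKM in 4T07 cells (n = 4). In the order of Igfbp7 the group means ran on with only 2 of 46 steps larger than the larger SD.

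Lung metastases were compared with the primary tumour of the same animal in 10 models, with 68 pairs in all. In the mean over the 10 models, Igf1, Igfbp2, Igfbp6 and Igfbp7 were higher in metastases and Igfbp3 was lower, so that 5 of 8 members were called at an adjusted p under 0.05 by limma, where 31.2% of all genes tested were called. Igfbp3 had the most even direction, with a mean log2 difference above 0 in 0 of 10 models and higher values in metastases in only 13 of 68 pairs. In bulk tissue, fewer cells of a type and less RNA per cell cannot be told apart. Marker genes of other cells moved as well. All 7 alveolar type 2 markers tested, 5 of 6 alveolar type 1, 4 of 4 club cell, 10 of 10 endothelial, 6 of 6 neutrophil and 2 of 4 T cell markers were higher in metastases over the 10 models. Of the others, 8 of 10 fibroblast markers were lower and 1 higher, with sums of 44.2 to 308 RPKM in metastases and 236 to 705 RPKM in tumours, and 4 of 4 adipocyte markers were lower. The remaining lists had 1 of 8 epithelial markers lower, 1 of 8 macrophage markers higher and 1 lower, 1 of 5 pericyte and smooth muscle markers higher and 2 lower, and 1 of 1 hepatocyte marker lower. Their part in the differences of the 8 genes was not tested.

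**Figure D2:**
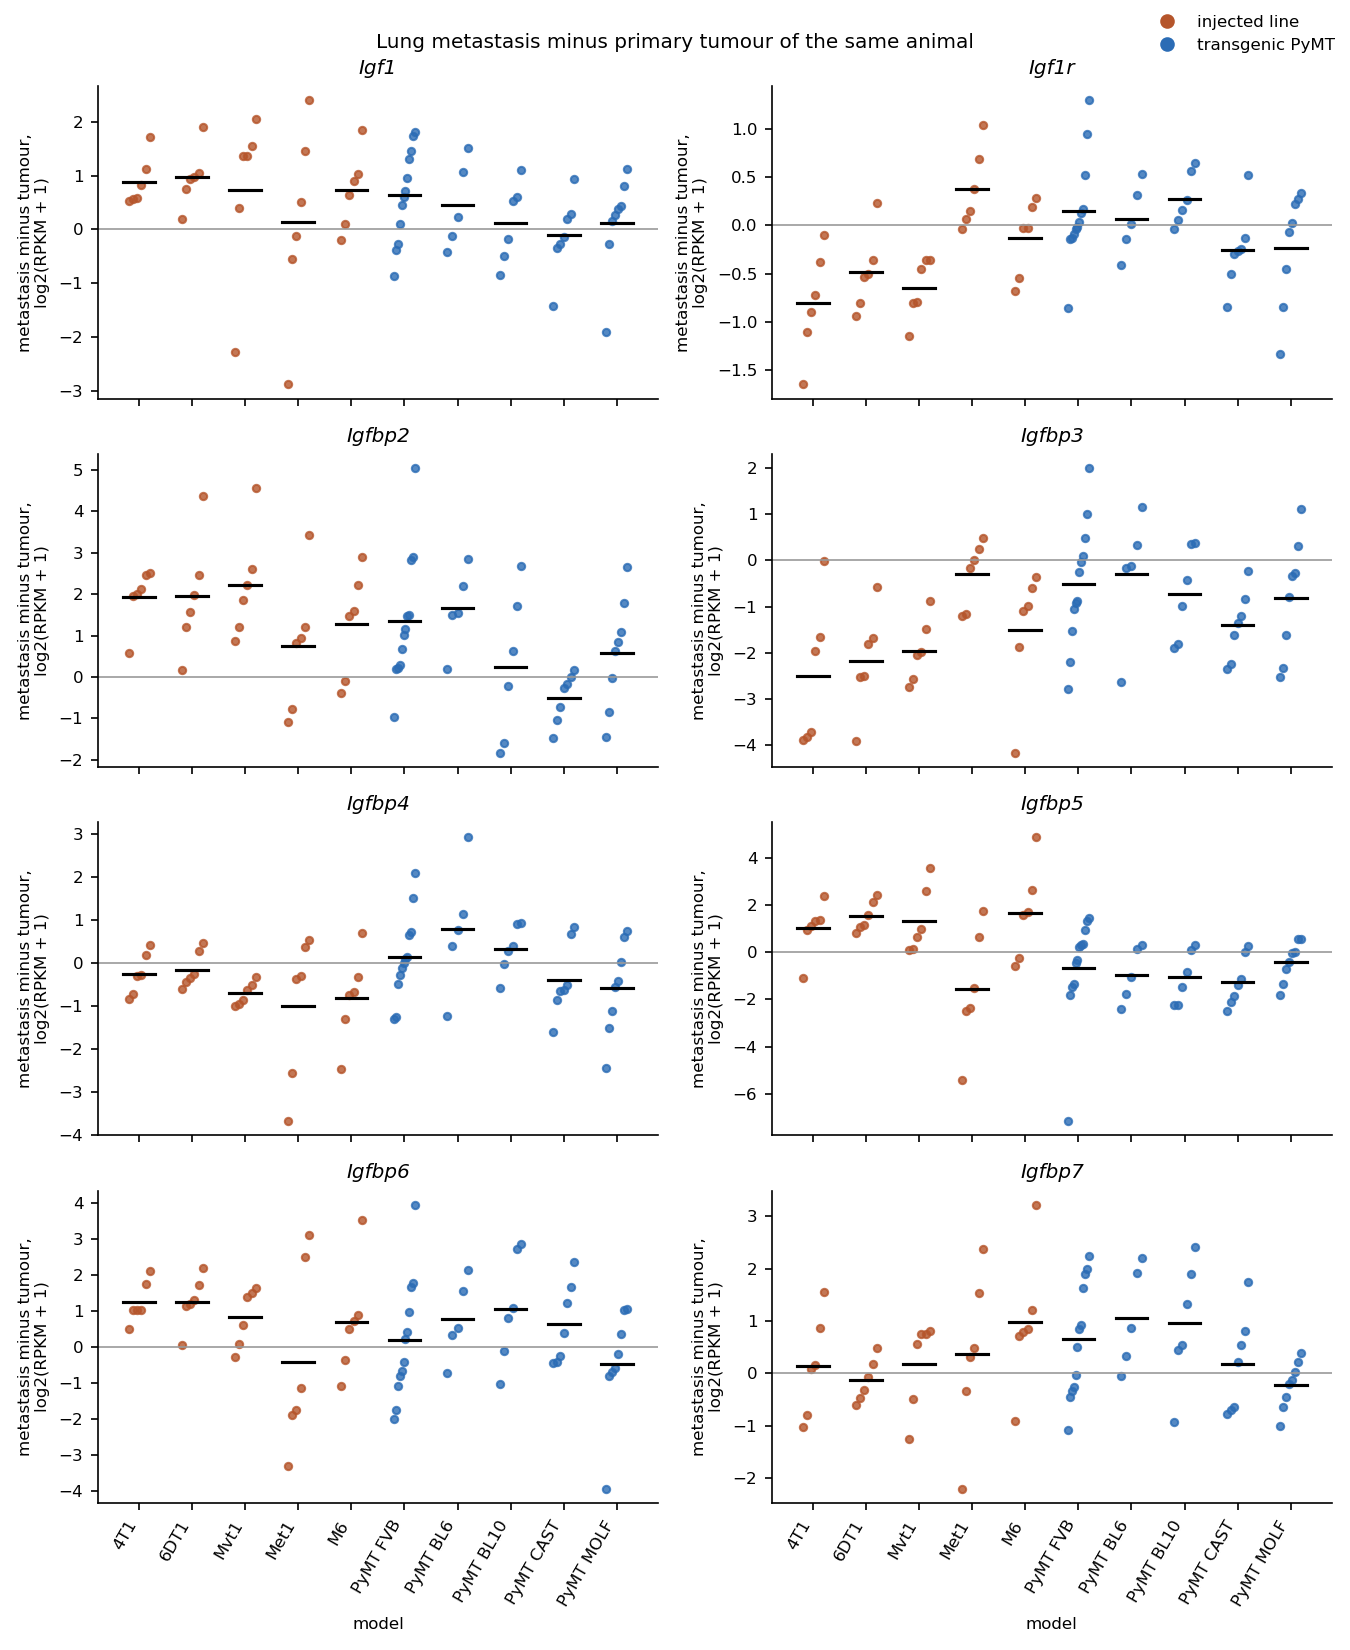
Lung metastasis minus primary tumour of the same animal on the log2(RPKM + 1) scale (vertical axis) for each of the 8 genes, with 1 point for each of 68 pairs in 10 models and a bar at each model's mean. The bars of Igfbp3 lie below 0 in all 10 models, those of Igf1 and Igfbp2 above 0 in 9, and those of Igfbp5 above 0 in 4T1, 6DT1, Mvt1 and M6 and below 0 in Met1 and the 5 transgenic PyMT models.

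Igf1 was higher in metastases by 0.47 ± 0.11 on the log2(RPKM + 1) scale over the 10 models (adjusted p = 0.00653, limma), with a mean log2 difference above 0 in 9 of 10 models and higher values in 49 of 68 pairs. On the RPKM scale the model mean was higher in metastases in 7 of 10 models. In the 4T1 model it was at 2.74, 3.78 and 6.87 RPKM (lowest, median, highest) in metastases and at 0.725, 1.98 and 2.29 RPKM in tumours. The 2 groups of 6 did not overlap, and the difference was 0.89 ± 0.17 (adjusted p = 0.0193, limma). In the 6DT1 model it was higher in 6 of 6 pairs, by 0.97 ± 0.19 (adjusted p = 0.00628, limma). In adjacent lung Igf1 averaged 2.25 RPKM, within the 1.54 to 4.95 RPKM of the metastases of the 10 models.

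Igf1r was lower in the metastases of 3 allograft lines and was not called over the 10 models, where its mean difference was -0.17 (adjusted p = 0.275, limma). In 4T1 animals it was at 3.85, 5.33 and 6.14 RPKM in metastases and at 6.66, 9.98 and 14.3 RPKM in tumours, with no overlap (-0.81 ± 0.20, adjusted p = 0.0327, limma). In Mvt1 animals it was at 3.06, 4.60 and 6.09 RPKM in metastases and at 6.96, 7.67 and 8.70 RPKM in tumours, again with no overlap (-0.65 ± 0.12, adjusted p = 0.00888, limma). In 6DT1 animals it was lower in 5 of 6 pairs (-0.49 ± 0.14, adjusted p = 0.031, limma). Without a filter on low values the calls in 4T1 and 6DT1 were lost. In the 5 transgenic PyMT models Igf1r stayed near 1 RPKM, did not pass the filter and was not tested. In adjacent lung Igf1r averaged 6.55 RPKM, between the means of the tumours and the metastases of these 3 lines.

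Among the binding proteins Igfbp2 and Igfbp3 moved in opposite directions. In 4T1 animals Igfbp2 was at 3.03, 4.09 and 6.64 RPKM in metastases and at 0, 0.172 and 2.48 RPKM in tumours, and Igfbp3 was at 10.7, 21.6 and 71.4 RPKM in metastases and at 71.8, 161 and 212 RPKM in tumours. Neither gene's values overlapped between the groups (1.94 ± 0.24, adjusted p = 0.00291 for Igfbp2, and -2.51 ± 0.50, adjusted p = 0.0198 for Igfbp3, limma). In all, 5 of 8 members were called in 4T1, against 12.1% of all genes tested. In 6DT1, 6 of 8 were called against 34.4%, and in Mvt1, 4 of 8 against 29.0%.

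In 6DT1 animals Igfbp2 was at 10.3, 14.9 and 33.0 RPKM in metastases and at 0.640, 3.00 and 13.6 RPKM in tumours (1.97 ± 0.45, adjusted p = 0.0125, limma). Igfbp3 was at 1.76, 4.26 and 8.49 RPKM in the same metastases and at 7.13, 25.0 and 40.2 RPKM in the tumours (-2.17 ± 0.36, adjusted p = 0.0032, limma). Both genes kept their direction in 6 of 6 pairs although their ranges overlapped. In Mvt1 animals Igfbp2 was higher by 2.22 ± 0.44 (adjusted p = 0.0114, limma) and Igfbp3, at 3.43, 5.59 and 19.1 RPKM in metastases and 14.8, 25.5 and 119 RPKM in tumours, was lower by 1.95 on the log2 scale (-1.95 ± 0.24, adjusted p = 0.00301, limma). Again every pair had the same direction. Igfbp4, not called in the other models, was at 106, 130 and 166 RPKM in Mvt1 metastases and at 152, 217 and 323 RPKM in Mvt1 tumours, lower in 6 of 6 pairs (-0.72 ± 0.11, adjusted p = 0.0046, limma).

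In the transgenic PyMT models the direction of Igfbp3 was the same but the test was passed in CAST only, where 1 of 7 members tested was called against 4.51% of all genes. Igfbp3 was at 6.28, 11.2 and 29.7 RPKM in CAST metastases and at 21.8, 33.5 and 60.6 RPKM in CAST tumours, lower in 7 of 7 pairs (-1.41 ± 0.24, adjusted p = 0.0166, limma). Within the CAST libraries that have KS in their names (2 metastases and 2 tumours) the difference was -1.24 and the call was lost (adjusted p = 0.993, limma). Igfbp2 in BL6 animals was at 14.8, 33.1 and 62.3 RPKM in metastases and at 6.41, 10.0 and 12.9 RPKM in tumours, with no overlap in 5 pairs, yet missed the threshold (1.66 ± 0.34, adjusted p = 0.0879, limma), which it passed without mouse9791 (2.02, adjusted p = 0.0332) or without the animal as a block (adjusted p = 0.0345). In FVB it was higher in metastases in 11 of 12 pairs and also missed it (1.36 ± 0.41, adjusted p = 0.12, limma). No member was called in Met1, M6, FVB, BL6, BL10 or MOLF, where limma called 0.317%, 4.71%, 1.27%, 0.651%, 2.56% and 1.10% of all genes, and the counts of members at an unadjusted p under 0.05 were 0, 5, 3, 3, 2 and 0.

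Igfbp6 was called in 4T1, where it was at 5.01, 9.23 and 21.5 RPKM in metastases and at 1.93, 3.47 and 5.65 RPKM in tumours (1.25 ± 0.20, adjusted p = 0.0105, limma), and in 6DT1 (1.27 ± 0.24, adjusted p = 0.00538), higher in 6 of 6 pairs of both. Over the 10 models Igfbp2 was higher in metastases by 1.15 ± 0.24 (adjusted p = 0.00375, limma) and Igfbp3 lower (-1.22 ± 0.22, adjusted p = 0.00174, limma). Igfbp6 was higher by 0.58 ± 0.17 (adjusted p = 0.0235) and Igfbp7 by 0.41 ± 0.13 (adjusted p = 0.0307), both by limma and both lost when single models were left out. Igfbp6 lost its call without 4T1 (0.51, adjusted p = 0.0530), without Mvt1 (0.56, adjusted p = 0.0524) or without BL10 (0.53, adjusted p = 0.0529). Igfbp7 lost its call without M6 (0.35, adjusted p = 0.0631), FVB (0.39, adjusted p = 0.0617), BL6 (0.34, adjusted p = 0.0654) or BL10 (0.35, adjusted p = 0.0682). Igfbp2 and Igfbp6 are the 2 members that lung held at more than 100 RPKM and the tumours of these 10 models at less than 20 RPKM. The rise of the alveolar type 2 marker sum in metastases amounted to 11.3% to 44.7% of its adjacent lung level over the 10 models. The 44.7% of FVB becomes 10.5% without mouse9716, with 26.7% in 6DT1 then the highest. The rise of the alveolar type 1 marker sum ran from -3.79% in Met1 to 9.15% in 4T1. That of the club cell marker sum was 0.195% to 3.18%, that of Igfbp2 -0.797% to 6.02%, and that of Igfbp6 -3.14% to 7.36%. Igfbp3 was at 16.6 RPKM in adjacent lung. The fibroblast markers fell with it, and their part in its difference was not tested.

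Igfbp5 separated the models instead of the sites. Its mean difference between metastasis and tumour was positive in 4T1, 6DT1, Mvt1 and M6 and negative in Met1 and the 5 transgenic PyMT models, and over the 10 models it was -0.04 ± 0.35 (adjusted p = 0.946, limma), or 0.02 without mouse9716. In 6DT1 animals Igfbp5 was at 7.44, 3.75, 2.40, 7.41, 4.95 and 2.71 RPKM in metastases, and at 2.82, 1.26, 0.942, 0.555, 0.357 and 0.256 RPKM in the tumours of the same animals in the same order. All 6 pairs rose, by 1.53 ± 0.22 on the log2 scale (adjusted p = 0.00172, limma). The level in 6DT1 metastases was nevertheless far below the 128 RPKM of adjacent lung. In M6 animals Igfbp5 was at 2.75, 14.9 and 100.2 RPKM in metastases and at 0.980, 3.51 and 22.8 RPKM in tumours, with overlap and higher values in 4 of 6 pairs (1.66 ± 0.65, adjusted p = 0.189, limma).

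In Met1 the metastases fell into separate levels. They held 49.9, 1639, 2099, 41.0, 71.0 and 91.1 RPKM, against 285, 489, 1343, 1766, 203 and 468 RPKM in the tumours of the same 6 animals, in the same order. The second and the third metastasis exceeded their own tumour and the other 4 lay below it (-1.56 ± 0.85, adjusted p = 0.546, limma). In CAST animals Igfbp5 was at 125, 379 and 786 RPKM in metastases and at 385, 790.1 and 1269.8 RPKM in tumours, lower in 6 of 7 pairs, and missed the threshold (-1.25 ± 0.33, adjusted p = 0.0654, limma). In FVB animals it was at 3.29, 1204 and 2370.1 RPKM in 13 metastases and at 579, 766 and 3072 RPKM in 14 tumours. Over the 12 FVB pairs the difference was -0.66 ± 0.60 (adjusted p = 0.593, limma), and it was -0.08 without the metastasis of mouse9716. It was 0.31 in the FVB pairs whose libraries have RNA in their names and -1.15 in those with KS, or -0.30 in the 7 KS pairs that remain without mouse9716.

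The difference between metastasis and tumour was then compared between the 5 allograft and the 5 PyMT transgenic models. No member was called by limma, where 0.680% of all genes were, and 5 of 8 members had an unadjusted p under 0.05. For Igfbp5 the model means ran from -1.56 to 1.66 in the allografts and from -1.25 to -0.40 in the transgenic models (log2), and they differed by 1.66 ± 0.52 (adjusted p = 0.181, limma). Without mouse9716 the FVB mean was -0.08 and the difference 1.54 (adjusted p = 0.229, limma). For Igfbp3 they differed by -0.94 ± 0.36 (adjusted p = 0.283). Without the Met1 model, the allograft that shares the PyMT driver, the 2 differences were 2.25 (adjusted p = 5.0e-04) and -1.28 (adjusted p = 0.0175, limma), so that both calls turn on that 1 model.

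**Figure D3:**
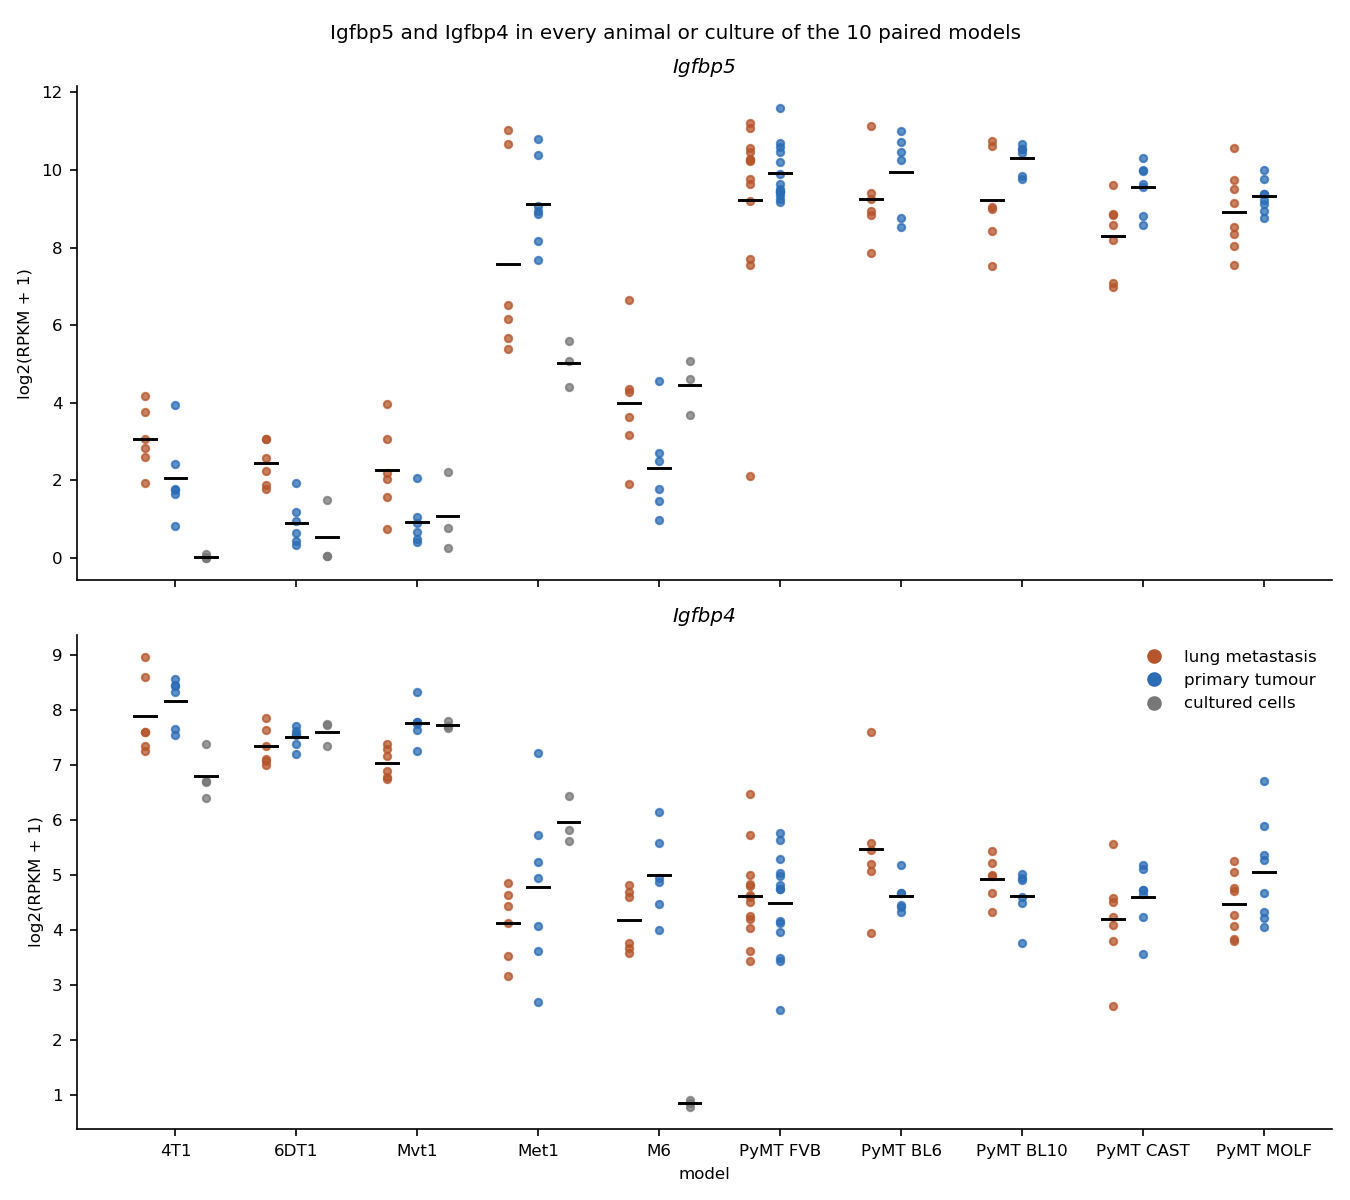
Levels of Igfbp5 and Igfbp4 in single animals or cultures of the 10 paired models on the log2(RPKM + 1) scale. Lung metastases, tumours and, where sequenced, cultured cells are shown for each model, with a bar at each mean. Igfbp5 lies between 436 and 3072 RPKM in most PyMT tumours and averages 1.03 and 1.08 RPKM in 6DT1 and Mvt1 tumours. Igfbp4 averages 24.2 to 39.6 RPKM in the transgenic PyMT tumours and 182 and 221 RPKM in 6DT1 and Mvt1 tumours.

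Orthotopic tumours were set against cultured cells in the 7 lines that had both. Of 7 members tested, 4 were higher in tumours, Igf1, Igfbp3, Igfbp6 and Igfbp7, and limma called 21.9% of all genes. Igfbp3 had the largest difference among the members. Its group means were 24.7, 40.3 and 152 RPKM (lowest, median, highest) in tumours and 0, 0.0431 and 1.93 RPKM in cells. The ranges were separate in all 7 lines (5.43 ± 0.34, adjusted p = 1.11e-05, limma). In 4T1 cells no read of Igfbp3 was counted in any of 4 libraries, and in M6 cells it averaged 1.93 ± 0.546 RPKM (SD, n = 3).

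Igf1 had a higher mean in tumours of 7 of 7 lines (1.15 ± 0.23, adjusted p = 0.00861, limma). In Met1 the tumours averaged 4.47 RPKM of Igf1, within the range of the Met1 cell libraries given above. Igfbp7 was at 31.9, 104 and 209.5 RPKM in tumours and at 3.08, 48.3 and 99.2 RPKM in cells, higher in 7 of 7 lines (1.43 ± 0.29, adjusted p = 0.00843, limma). Igfbp6 was higher in 6 of 7 lines (1.31 ± 0.32, adjusted p = 0.0191), the exception being 4T07, and lost its call without 4T1 (1.20, adjusted p = 0.0575). Without the line as a block, adjusted p was 0.174 for Igfbp7 and 0.188 for Igfbp6. Igf1r, Igfbp4 and Igfbp5 were not called, and Igfbp2 did not pass the filter. The marker lists of other cells moved with these genes. Higher in tumours were 8 of 9 fibroblast markers, with sums of 272 to 705 RPKM in tumours and 2.05 to 109 RPKM in cells, 8 of 9 endothelial markers (30.2 to 109 and 0.771 to 11.0 RPKM), 8 of 8 macrophage markers (227 to 1045 and 3.48 to 43.1 RPKM) and 3 of 3 neutrophil markers, while 0 of 8 epithelial markers were called. Their part in the tumour levels of Igfbp3, Igf1, Igfbp6 and Igfbp7 was not tested.

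**Figure D4:**
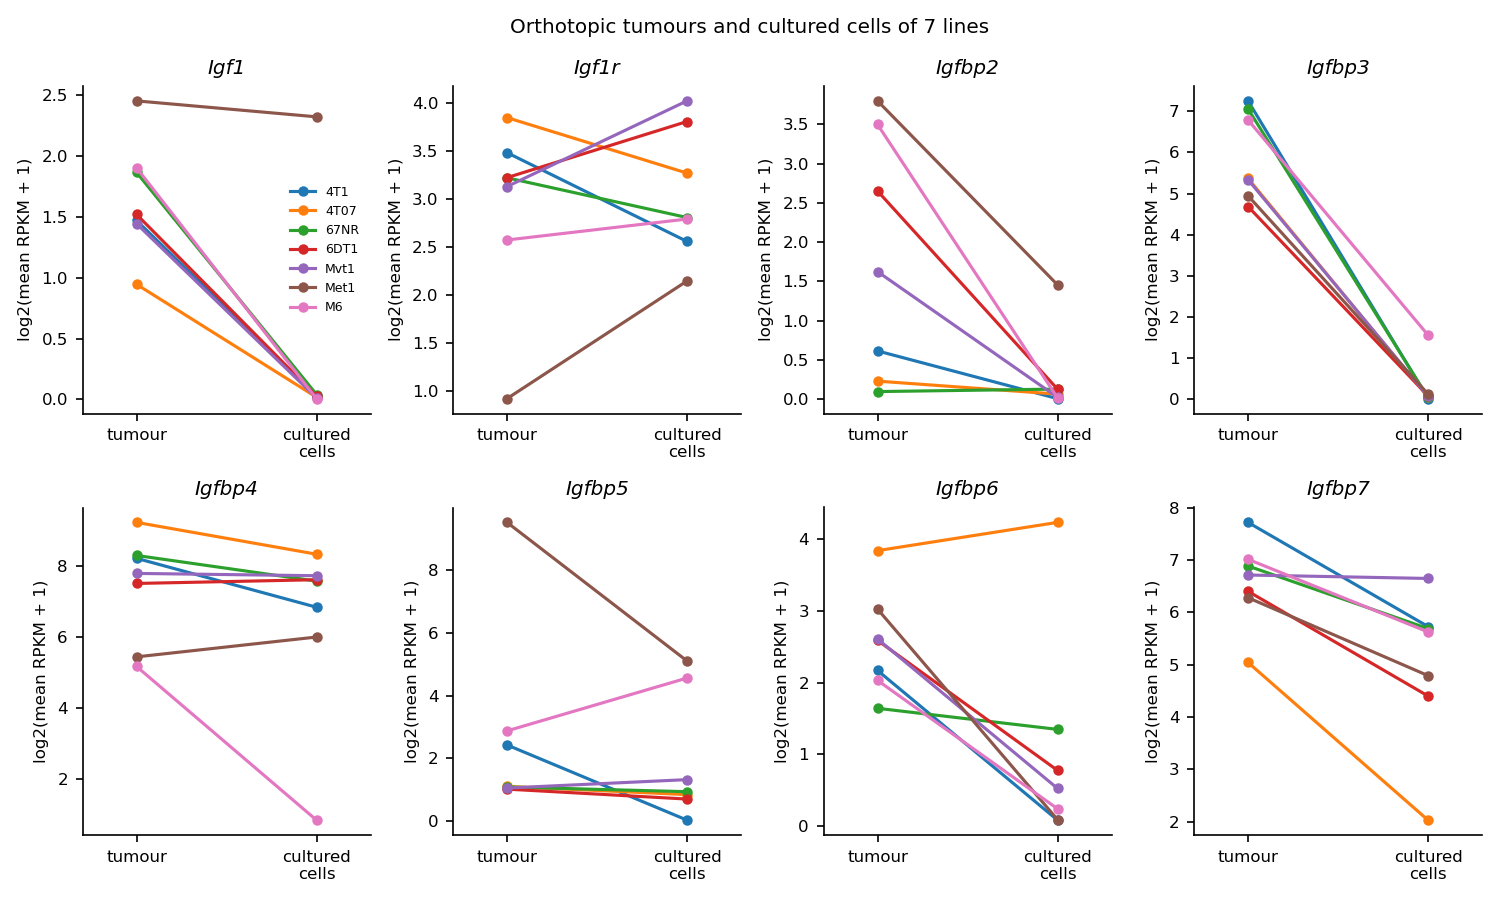
Mean level of the 8 genes in orthotopic tumours (left in each panel) and cultured cells (right) of 7 lines on the log2(RPKM + 1) scale, with a line joining the groups of the same line. Igfbp3 drops in all 7 lines, to a highest cell mean of 1.93 RPKM, whereas Igf1r and Igfbp4 cross in both directions.

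Cultured cells of the 4T1 series also differed among themselves by library set. In 4T07 cells Igfbp4 was at 106 and 123 RPKM in the 2 libraries with AS in their names and at 509 and 551 RPKM in the other two, and Igf1r was at 6.03 and 4.72 RPKM against 12.4 and 11.4 RPKM. In 67NR cells Igfbp5 was at 0 RPKM in both AS libraries and at 1.95 and 1.73 RPKM in the other pair. What set the libraries of the same line apart is not given in the labels, and the mean of each line rests on both sets.

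Allograft tumours were set against transgenic tumours, with the mean of each of 14 allograft and 8 transgenic groups as a value. Several transgenic groups share the PyMT transgene and several lines share a mouse of origin. The fit takes these groups as independent, which they are not, so its p values are too small to be read as those of separate models. Here 4 of 8 members were called, against 40.2% of all genes tested. Igfbp5 was at 0.710, 2.32 and 728 RPKM (lowest, median, highest) in the allograft groups and at 46.9 and 737 RPKM (lowest, median) in the transgenic groups (-6.47 ± 0.85, adjusted p = 5.78e-06, limma). On the allograft side the Met1 tumours stood among the transgenic PyMT groups. Igfbp4 was at 35.2, 181 and 600.5 RPKM in allografts and at 24.2, 28.5 and 134 RPKM in transgenic tumours (2.39 ± 0.42, adjusted p = 1.36e-04, limma). Igf1r was higher in allografts by 1.35 ± 0.30 (adjusted p = 0.00128) and Igfbp2 lower (-2.35 ± 0.41, adjusted p = 1.11e-04, limma). Macrophage markers (7 of 8), T cell markers (5 of 5) and endothelial markers (5 of 9) were higher in allografts, and 5 of 8 epithelial markers were lower. Line, driver and strain change together between these groups and cannot be told apart.

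The 3 sister lines 4T1, 4T07 and 67NR, derived from 1 mouse tumour, have been used as a series of rising capacity to spread, with 4T1 forming metastases and 67NR remaining at the primary site. Their tumours enter 3 comparisons that share samples, 6 animals each. In 4T07 tumours Igfbp4 was at 490.0, 624 and 726 RPKM, against 286, 300.5 and 392 RPKM in 67NR tumours (0.93 ± 0.11, adjusted p = 6.46e-06, limma). Igfbp6 was at 8.19, 14.3 and 15.2 RPKM in 4T07 tumours and at 0.648, 1.42 and 6.28 RPKM in 67NR tumours (2.37 ± 0.30, adjusted p = 1.75e-05, limma). Neither gene overlapped between the groups, and neither did Igf1r (0.63 ± 0.11, adjusted p = 1.52e-04). Lower in 4T07 than in 67NR were Igfbp7 (-2.05 ± 0.34, adjusted p = 1.62e-04), Igfbp3 (-1.92 ± 0.51, adjusted p = 0.0053) and Igf1 (-0.88 ± 0.29, adjusted p = 0.0165), all by limma. In this comparison 6 of 7 members tested were called, against 64.8% of all genes.

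In 4T1 tumours Igfbp7 was at 80.2, 217 and 287 RPKM, against 16.0, 22.8 and 85.1 RPKM in 4T07 tumours (2.83 ± 0.38, adjusted p = 8.34e-05, limma). Igfbp3 was higher in 4T1 than in 4T07 by 2.23 ± 0.44 (adjusted p = 0.00146), and Igfbp4 (-1.05 ± 0.18, adjusted p = 5.55e-04) and Igfbp6 (-1.70 ± 0.20, adjusted p = 2.17e-05) were lower with no overlap, so that 4 of 7 members were called against 43.5% of all genes (limma). Between 4T1 and 67NR tumours 2 of 7 were called, against 59.4%. Igfbp5 was at 0.775, 2.39 and 14.3 RPKM in 4T1 and at 0.0681, 0.674 and 3.93 RPKM in 67NR (1.16 ± 0.47, adjusted p = 0.0471), a call lost without the filter on low values (adjusted p = 0.0686), and Igfbp7 was higher in 4T1 by 0.77 ± 0.28 (adjusted p = 0.0268, limma). The 4T07 tumours therefore lay outside the range of the other two for Igfbp4 and Igfbp6. Marker genes of other cells also differed in the 4T07 tumours. Lower than in 67NR were 8 of 9 endothelial, 8 of 8 macrophage and 2 of 3 pericyte and smooth muscle markers. In the same comparison 6 of 6 neutrophil and 3 of 3 epithelial markers were higher, and 2 of 10 fibroblast markers were higher and 1 lower. Compared with 4T07, 4T1 tumours had 9 of 9 endothelial, 7 of 7 epithelial and 4 of 4 pericyte and smooth muscle markers higher. Of 10 fibroblast markers 8 were higher and 2 lower, 2 of 4 T cell markers were lower, and 0 of 8 macrophage markers were called. The part of these cells in the differences was not tested.

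Among PyMT tumours the strain of the cross went with few called members. Each cross was set against the same 14 FVB tumours. In BL6, BL10 and CAST no member was called by limma, which called 6.59%, 9.37% and 13.1% of all genes, and no member had an unadjusted p under 0.05. In MOLF 2 of 8 were called, against 36.2%. Igfbp2 was at 7.33, 15.1 and 52.8 RPKM in MOLF tumours and at 1.81, 5.33 and 59.7 RPKM in FVB tumours (1.36 ± 0.42, adjusted p = 0.0154, limma). Igfbp7 was at 31.2, 65.8 and 108 RPKM in MOLF tumours and at 14.6, 33.4 and 51.6 RPKM in FVB tumours (1.00 ± 0.24, adjusted p = 0.00314, limma). Both ranges overlapped. In MOLF tumours 4 of 4 neutrophil, 3 of 8 macrophage, 1 of 10 fibroblast and 1 of 9 endothelial markers were also higher. Of 3 pericyte and smooth muscle markers 1 was higher and 1 lower, and 1 of 8 epithelial markers was lower. The part of these cells in the differences was not tested. Among libraries with KS in their names, which leave 2 MOLF and 8 FVB tumours, the differences were 1.17 (adjusted p = 0.0869) for Igfbp2, close in size to that over all tumours, and 0.25 (adjusted p = 0.718) for Igfbp7 (limma). Among the 5 BL10 tumours with KS, which are those titled BL10J, and the 8 FVB tumours with KS, Igfbp2 was called (1.14, adjusted p = 0.031, limma).

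Myc and C3Tag tumours had less Igfbp5 than PyMT FVB tumours, whereas the 2 Neu tumours, given above, were not tested. In Myc tumours Igfbp5 was at 3.41, 48.6 and 98.3 RPKM, against 579, 766 and 3072 RPKM in the PyMT FVB tumours (-5.10 ± 0.53, adjusted p = 1.07e-07, limma). In the 3 C3Tag tumours it was at 123, 144 and 74.3 RPKM, again below every PyMT FVB tumour (-3.12 ± 0.40, adjusted p = 6.51e-06, limma). Within libraries with RNA in their names the Myc difference was -4.96 (adjusted p = 3.49e-04). In Myc tumours Igfbp2 (1.67 ± 0.48, adjusted p = 0.00515), Igfbp7 (1.12 ± 0.32, adjusted p = 0.00455) and Igfbp3 (1.05 ± 0.29, adjusted p = 0.00366) were higher, so that 4 of 8 members were called against 61.9% of all genes. Of the markers, 4 of 8 macrophage and 2 of 10 fibroblast genes were higher and 3 of 8 epithelial genes lower in Myc tumours. Of 9 endothelial genes 3 were higher and 1 lower, and the part of these cells in the differences was not tested. The median of all genes was shifted by -0.213 between Myc and PyMT FVB tumours, and by 0.178 between C3Tag and PyMT FVB tumours.

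In the C3Tag tumours Igfbp7 was at 185, 132 and 125 RPKM, above every PyMT FVB tumour (2.19 ± 0.33, adjusted p = 3.26e-05, limma). Igf1r was at 4.65, 6.36 and 3.5 RPKM in C3Tag tumours and at 0.430, 0.851 and 3.76 RPKM in PyMT FVB tumours (1.5 ± 0.29, adjusted p = 3.83e-04, limma). Igfbp6 (1.70 ± 0.57, adjusted p = 0.0186) and Igfbp3 (0.97 ± 0.38, adjusted p = 0.0432) were also called, which makes 5 of 8 members against 49.1% of all genes. Both rest on few libraries. Without the first C3Tag tumour Igfbp6 (1.21, adjusted p = 0.154) and Igfbp3 (0.82, adjusted p = 0.172) lost their calls, and so did Igfbp6 without a second (1.72, adjusted p = 0.0580) and Igfbp3 without the remaining one (0.88, adjusted p = 0.139). In C3Tag tumours 5 of 8 macrophage, 5 of 10 endothelial and 4 of 10 fibroblast markers were higher, and their part in the differences was not tested.

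Lung itself was rich in Igfbp2, Igfbp6 and Igfbp7. Adjacent and healthy lung differed in no member by limma (0 of 8, and 0 at an unadjusted p under 0.05, where 13.6% of all genes were called). The library name prefix differs with the group, so that the 2 cannot be told apart. Igfbp2 was at 236, 383 and 466.1 RPKM in the 5 adjacent lungs and at 191, 289 and 319 RPKM in the 4 healthy lungs, which overlap. It was called without adjacent lung of mouseBL5Rf (0.60, adjusted p = 0.0424), and Igfbp6 without that of mouse9462f (-0.47, adjusted p = 0.0295, limma).

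PyMT FVB metastases were then set against adjacent lung of other animals, where 5 of 8 members were lower in metastases, against 61.8% of all genes called and a shift of the median of all genes by 0.128. The 5 adjacent lungs have RNA in their library names, whereas 8 of the 13 metastases have KS. Igfbp6 was at 0.441, 1.96 and 17.5 RPKM in 13 metastases and at 84.7, 105 and 173 RPKM in 5 adjacent lungs (-5.04 ± 0.46, adjusted p = 5.51e-08, limma). Igfbp2 was at 1.26, 13.3 and 91.9 RPKM in metastases and at 236, 383 and 466.1 RPKM in adjacent lung (-4.63 ± 0.62, adjusted p = 4.62e-06, limma). Igf1r was at 0.381, 0.747 and 4.37 RPKM in metastases and at 5.45, 6.54 and 8.18 RPKM in adjacent lung (-1.76 ± 0.28, adjusted p = 3.46e-05, limma). None of these 3 genes overlapped between the tissues. Igfbp7 (-2.02 ± 0.42, adjusted p = 4.69e-04) and Igfbp4 (-1.62 ± 0.36, adjusted p = 7.05e-04) were lower with overlap. All 5 calls held without the metastasis of mouse9716.

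Igfbp5 went the other way and depended on a single library. It was at 3.29, 1204 and 2370.1 RPKM in metastases and at 59.4, 101 and 240.4 RPKM in adjacent lung, a difference of 2.38 ± 1.03 that missed the threshold (adjusted p = 0.0523, limma). Without the metastasis of mouse9716 it was 2.98 (adjusted p = 7.6e-05), and within libraries with RNA in their names it was 2.91 (adjusted p = 0.00303). In metastases 7 of 7 alveolar type 2, 4 of 4 club cell and 10 of 10 endothelial markers were lower than in adjacent lung, and 5 of 8 epithelial markers were higher and 1 lower. Of the other lists, 6 of 9 fibroblast markers were lower. Among 8 macrophage markers 3 were higher and 2 lower, and among 6 pericyte and smooth muscle markers 2 were higher and 3 lower. The part of these cells in the differences was not tested.

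**Figure D5:**
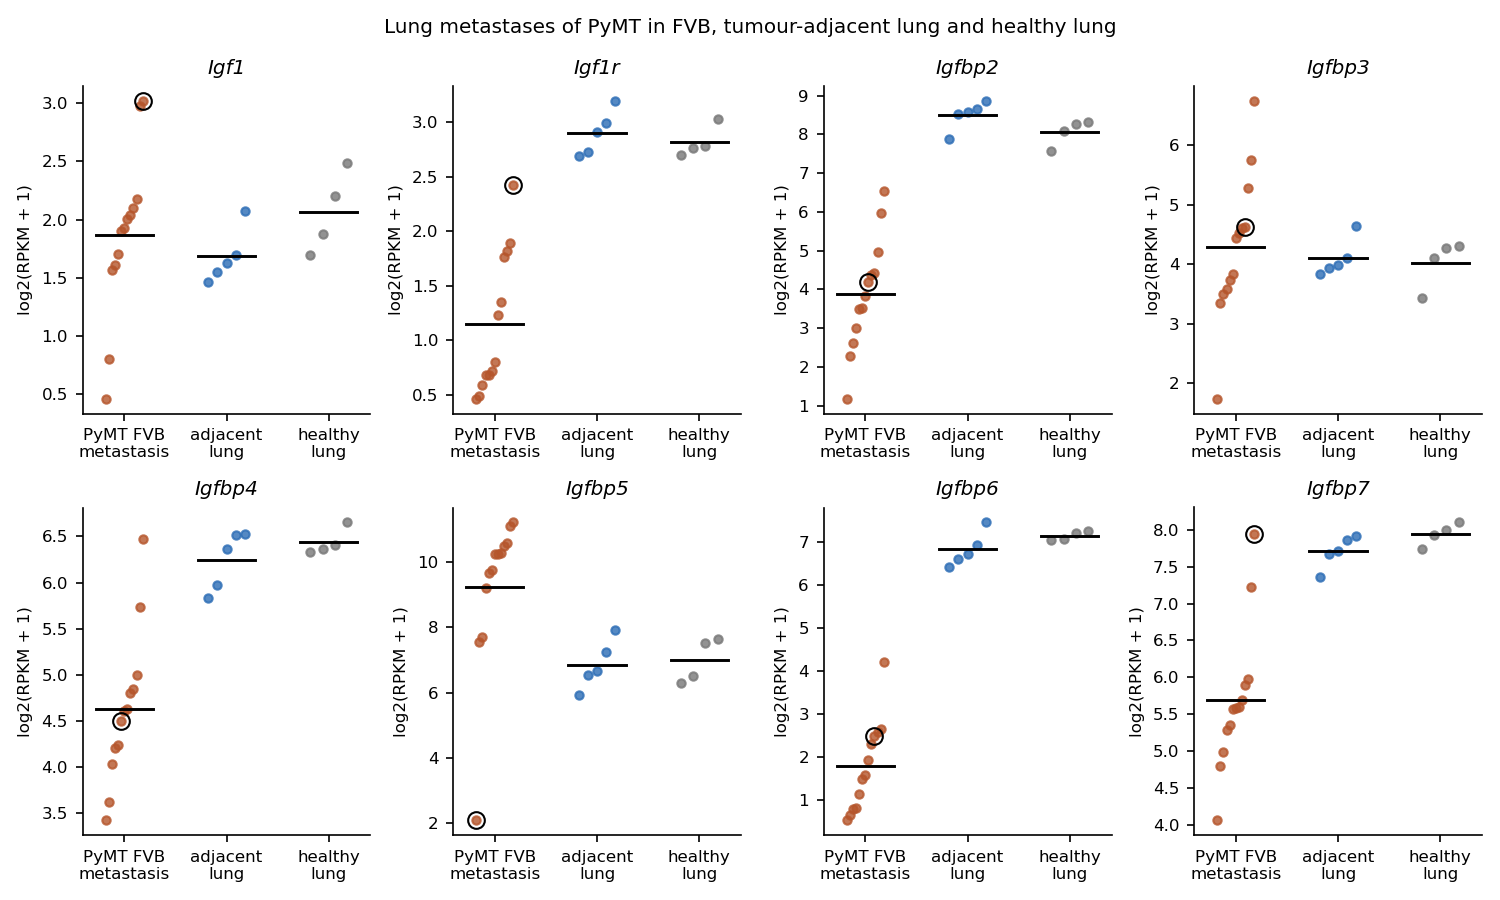
Levels of the 8 genes in single PyMT FVB animals on the log2(RPKM + 1) scale, for lung metastases (13), adjacent lung (5) and healthy lung (4), with bars at the means and the metastasis of mouse9716 circled. Igfbp2, Igfbp6 and Igf1r are lower in every metastasis than in any adjacent lung, while Igfbp5 is above the adjacent lungs in most metastases and at 3.29 RPKM in the circled one.

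Liver metastases of M6 cells injected into the heart were set against adjacent liver of the same 5 animals. Igf1 was at 31.8, 20.3, 28.3, 37.4 and 37.5 RPKM in metastases and at 102, 90.9, 75.2, 111 and 83.6 RPKM in the adjacent liver of the same animals in the same order (-1.56 ± 0.16, adjusted p = 5.1e-11, limma). Igf1r was at 3.28 to 4.71 RPKM in metastases and at 0.0782 to 0.125 RPKM in adjacent liver (2.17 ± 0.11, adjusted p = 8.89e-19, limma). The tissues did not overlap for either gene. Ligand and receptor thus had opposite patterns, with Igf1 on the side of the liver and Igf1r on the side of the tumour.

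Of the binding proteins, Igfbp4 (-1.35 ± 0.17, adjusted p = 4.96e-09) and Igfbp2 (-1.48 ± 0.17, adjusted p = 1.82e-09) were lower in M6 liver metastases than in adjacent liver, and Igfbp3 (2.80 ± 0.32, adjusted p = 2.05e-04) and Igfbp7 (1.86 ± 0.15, adjusted p = 2.38e-13) were higher, with no overlap in 5 pairs. Thus 6 of 7 members tested were called, but so were 93.2% of all genes, and the median of all genes was shifted by 1.346, so that a call in itself says little here. The differences of Igf1r, Igfbp3 and Igfbp7 exceeded that shift. Igfbp5 was higher by 1.00 ± 0.42 (adjusted p = 0.0774, limma), which is below the shift, and its difference was -0.08 after rescaling to genes found in every library. Of the markers, 8 of 8 hepatocyte genes were lower in metastases, with sums over the groups of 8827 to 39754.5 RPKM in 7 metastases and 27269 to 46435 RPKM in 5 adjacent livers, and 8 of 8 epithelial and 8 of 8 fibroblast genes were higher.

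The route by which cells reached the lung was compared in 4T1 and Mvt1. Between tail vein and orthotopic 4T1 metastases 1 of 8 members was called, against 5.75% of all genes. Igfbp6 was at 1.72, 3.71 and 5.76 RPKM in tail vein metastases and at 5.01, 9.23 and 21.5 RPKM in orthotopic metastases (-1.20 ± 0.32, adjusted p = 0.0447, limma), with overlap, and the call was lost without the filter on low values (adjusted p = 0.0689). In Mvt1 no member was called by limma and none had an unadjusted p under 0.05, where 4.25% of all genes were called.

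Where several metastases of 1 animal in the same organ were sequenced (95 libraries in 45 such sets), Igfbp5 varied most between them. Its SD within a set was 0.90 on the log2 scale, against 1.45 between the 107 animal means of the metastasis groups. An animal with metastases in several organs counts once for each organ. The SD of Igf1r was 0.29 within sets and 0.37 between animal means.

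The genes most like each member were taken from 13611 genes by Pearson's r of log2(RPKM + 1) over the 61 group means, as a description. Igf1 was most like the liver-secreted inhibitors Serpina1b, Serpina3m and Serpina3k (r = 0.92 each). Igf1r was most like Phldb1 (0.92), Zfp608 and Fam102b (0.89 each), and Igfbp2 like Cyp2f2 and Hpgd (0.83 each) and Ces1d (0.82). Igfbp3 was most like the matrix genes Fstl1 (0.83) and Bgn (0.81) and the macrophage gene C1qa (0.81). Igfbp4 was most like Oaf (0.84), Tsku (0.79) and Akr1c13 (0.77), and Igfbp5, with the closest match of all members, like Mansc1 (0.94), Emid1 (0.90) and 5330417C22Rik (0.89). Igfbp6 was most like Pltp (0.80), Tppp3 and Clec3b (0.76 each), and Igfbp7 like Ifngr1 (0.77), Tagln and S1pr3 (0.73 each). Among the members themselves the highest value was that of Igf1 and Igfbp2 (0.62).

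Of 24 other genes of the IGF system, from Igf2 and its receptor to the signalling genes Irs1, Akt1 and Foxo1, 19 passed the filter in the mean over the 10 models. In metastases 11 were lower and 0 higher, namely Adam12, Akt1, Akt2, Foxo1, Foxo3, Insr, Irs1, Irs2, Shc1, Stc1 and Stc2, and none of them by 2-fold, where 19.4% of all genes were lower and 11.7% higher. The median difference of the 19 was -0.237, against -0.037 for all genes. Single models had fewer, with 4 of 16 lower in 4T1, 4 of 16 lower and 2 higher in 6DT1, 4 of 14 lower and 1 higher in Mvt1, 2 of 18 lower in CAST and 0 called in the other 6.

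Between allograft and transgenic tumours 4 of 19 genes of the list were higher and 5 lower, where 40.2% of all genes were called. Htra1, which encodes a protease that cleaves IGF-binding proteins, averaged 83.1 RPKM in allograft groups and 7.02 RPKM in transgenic groups (3.49, adjusted p = 6.93e-05, limma). Pik3r1, the regulatory subunit of PI 3-kinase, averaged 6.67 RPKM in allografts and 59.1 RPKM in transgenic tumours (-2.92, adjusted p = 1.62e-06). Igfals, which holds the ternary complex of IGF and IGFBP3 or IGFBP5 in blood, averaged 0.327 RPKM in allografts and 9.46 RPKM in transgenic tumours (-2.33, adjusted p = 3.27e-05), and the secreted Stc2 averaged 0.9951 RPKM in allografts and 6.38 RPKM in transgenic tumours (-1.82, adjusted p = 5.51e-07). Against PyMT FVB tumours, 12 of 19 were lower and 1 higher in Myc tumours, where 41.1% of all genes were lower and 20.8% higher, with Foxo1 at -1.80, Foxo3 at -1.91, Pik3r1 at -1.90 and Igf2r at -1.21, and 6 of 20 were higher and 5 lower in C3Tag tumours, where 32.7% of all genes were higher and 16.4% lower. Htra1 was higher (3.07) and Pik3r1 (-2.0), Igfals (-2.65) and Foxo3 (-1.06) lower in C3Tag tumours, so that Htra1, Pik3r1 and Igfals had the direction of the allografts.

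In the remaining comparisons of that list, 4 of 16 were higher in tumours than in cultured cells and 0 lower, where 21.9% of all genes were called. In 4T1 tumours 10 of 17 were higher and 3 lower than in 67NR (59.4% of all genes called), with Irs1 (2.05), Stc1 (1.49) and Igf2r (1.41) higher and Htra1 (-1.38) lower. In 4T07 tumours 7 of 15 were higher and 3 lower than in 67NR (64.8% of all genes), with Foxo1 (1.07) higher and the growth hormone receptor gene Ghr (-1.13) lower, and 5 of 17 were higher and 1 lower in 4T1 than in 4T07 (43.5%). Against FVB tumours, MOLF had 1 of 19 higher and 7 lower (36.2% of all genes called), with Foxo1 at -1.11, CAST had 3 of 19 lower (13.1%), with Grb10 at -1.28, BL10 had 1 higher and 3 lower (9.37%), and BL6 had 2 lower (6.59%). In FVB metastases 9 of 19 were higher and 5 lower than in adjacent lung (61.8% of all genes called), with Igfals (2.47), Igf2r (1.51) and Irs1 (1.23) higher and Htra1 (-2.75) lower, and 1 of 17 was lower in adjacent than in healthy lung (13.6%). In M6 liver metastases 13 of 17 were higher and 3 lower than in adjacent liver (93.2% of all genes), with Irs1 at 2.65 and Akt1 at 2.53, beside a median of all genes of 1.346.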

How the data were processed

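RNA from flash-frozen tissue or cultured cells was sequenced on the HiSeq2500, per the labels' protocols. The table deposited by the authors holds RPKM per gene and library on build mm9. TopHat is named without version or settings in the submitters' processing notes. Every column was matched to a sample. Whole reads were recovered from the steps of 5960 genes. The share of whole values was computed for Igfbp7 only, at a length chosen to make them whole. It was 100.0% within 0.001 reads, and the share over the 5960 genes was not computed.

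Libraries of the same animal were averaged, giving 1 value per animal. Group differences were fitted on log2(RPKM + 1) with limma 3.58.1 in R 4.3.3, over the genes that reached 1 RPKM in a number of animals no smaller than the smaller group, with the animal or line as a block where groups share them, a trended and robust variance, and Benjamini-Hochberg adjustment over all genes tested. Models and lines that share a driver or a mouse of origin were counted as separate units. A call is an adjusted p under 0.05, and ± beside a difference is its SE. In all, 28 comparisons were fitted, and the fits were tested on simulated data. Other steps used Python 3.11.15, numpy 2.4.6, pandas 2.3.3 and matplotlib 3.10.9. The log2 scale understates differences of genes near 0.

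The members, the list of 24 IGF genes and the marker lists were chosen with earlier results of these data known. All members are named, and up to 4 listed IGF genes per comparison, those with the smallest adjusted p among called genes with a 2-fold difference and at least 5 RPKM in the higher group. The animal in the labels pairs metastasis and tumour. Deviations of paired samples correlated over 0.1 in 4 of 6 pairs of 4T1, 6DT1, Met1 and M6, 2 of 6 of Mvt1 and BL10, 9 of 12 of FVB, 2 of 5 of BL6, 6 of 7 of CAST, 7 of 8 of MOLF and 5 of 5 of M6 liver. For cultured cells the labels do not say that libraries are separate cultures, so their spread may be technical. None of 1223 pairs of libraries compared within groups was identical. Alternatives were a pseudocount of 0.1, no filter, rescaling to the median ratio over 4734 genes found in every library, the block left out, each animal, line or model left out, and sets of libraries with a shared prefix in their names. The sets by prefix, each Met1 animal left out, and mouse9716 left out within KS and over the 10 models were chosen after seeing the data.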

Additional observations from a re-analysis of the deposited data

Results flagged for a closer look

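In groups of 4 to 10 animals or cultures, 22 of 312 tests over 39 groups and 8 genes had a sample at the edge of the group with a large gap to the others. Chance alone marks about 1 in 20 groups.

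The same MOLF tumour was far above the other 7 MOLF tumours in 2 members. Igf1 was at 9.33 RPKM against 0.690 to 1.39 RPKM, and Igfbp6 at 31.3 RPKM against 1.52 to 4.58 RPKM. The fibroblast gene Col1a1 was at 191 RPKM in the same tumour and at 9.91 to 37.7 RPKM in the others, and its part in the 2 values was not tested.

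Igfbp2 stood apart most often. It was high in 4T07 tumour 2 (0.597 RPKM, the others 0 to 0.168), 4T1 tumour 12 (2.48 RPKM, the others 0 to 0.351), 67NR tumour 2 (0.300 RPKM, the others 0 to 0.0450), EMT6 tumour PT2 (1.08 RPKM, the others 0.0143 to 0.113) and F311 tumour PT3 (2.32 RPKM, the others 0.253 to 0.342), and was found in 1 of 4 libraries of 4T1 cells (0.0145 RPKM). It was low in a lung metastasis of M6 (8.67 RPKM, the others 20.5 to 32.6) and a lung metastasis of CAST (2.69 RPKM, the others 5.96 to 9.28). At the median depth 1 read of Igfbp2 was worth 0.0165 RPKM. The values near 0, among them those of 4T1 cells and 67NR tumours, therefore rest on few reads.

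Igfbp3 was high in Mvt1 tumour 5 (119 RPKM, the others 14.8 to 28.7) and low in liver next to an M6 metastasis (2.01 RPKM, the others 4.19 to 5.31). Igfbp6 was high in an M6 lung metastasis (21.8 RPKM, the others 2.45 to 5.55) and an M6 liver metastasis (1.67 RPKM, the others 0.300 to 0.751), and low in 4T07 tumour 9 (8.19 RPKM, the others 13.0 to 15.2). Igfbp7 was high in 4T07 tumour 2 (85.1 RPKM, the others 16.0 to 24.3), and low in 4T1 tumour 11 (80.2 RPKM, the others 197 to 287) and 6DT1 tumour 5 (49.3 RPKM, the others 77.4 to 98.7).

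Igfbp4 was high in 67NR tumour 3 (392 RPKM, the others 286 to 314) and low in Mvt1 tail vein metastasis 3 (107 RPKM, the others 134 to 141). Igf1 was low in Mvt1 lung metastasis 1 (0.462 RPKM, the others 2.80 to 4.39), and Igf1r was low in 67NR tumour 1 (5.94 RPKM, the others 8.10 to 9.59).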

How the results depend on the processing

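Of 212 member differences tested, 64 were called, where limma called 0.317% to 93.2% of all genes in the single comparisons. The counts of members in this section stand without the share of all genes under each setting. They describe how calls move and are no result about the members against all genes. Under 388 alternatives to them, 364 kept the direction and the call, 24 lost the call and 0 reversed. Among 821 alternatives to differences neither called nor given above, 36 changed sign and 4 gained a call.

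Without a filter on low values the members called fell to 1 between 4T1 and 67NR tumours and to 0 between tail vein and orthotopic 4T1 metastases. Without the replicate block 1 member was called in BL6 metastases and 2 in tumours against cultured cells, and the block changed no other count by over 1.5 times. Within libraries with KS in their names 0 members were called in CAST metastases (Igfbp3 -1.24), 0 between MOLF and FVB tumours and 1 between BL10 and FVB tumours (Igfbp2, 1.14, adjusted p = 0.031). The Igfbp5 difference in FVB metastases was 0.31 in pairs with RNA and -1.15 in pairs with KS in their names, which becomes -0.30 without mouse9716.

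The Igfbp5 mean over the 10 models was 0.16 with a pseudocount of 0.1, 0.02 without mouse9716, and ran from -0.23 to 0.13 with each model left out, so its sign is not settled. The Igfbp5 difference in M6 liver metastases was -0.08 after rescaling and 0.60 to 1.26 with each animal left out. Leaving out animals, lines or models in turn, members called ranged from 0 to 1 in BL6 metastases, 3 to 5 over the 10 models (3 without BL10), 0 to 2 for the difference between allograft and transgenic models, 3 to 4 for tumours against cultured cells, 3 to 4 against the 5 called for C3Tag tumours, and 0 to 1 for adjacent against healthy lung. The cause of these changes was not tested.

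The 96 levels recomputed over libraries instead of animals moved by less than 1 SD. Depth limits Igf1, Igfbp2 and Igfbp3 in cultured cells, where values near 0 rest on few reads.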
